A study of Homo sapiens with 12 samples.

Results

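Expression with the FAK hairpin sh1209 was set beside expression with a scrambled control hairpin (shCtrl) in Capan-1, a cell line from a liver metastasis of a human pancreatic ductal adenocarcinoma. The members are the array probes that are no spike-in controls and that had a detection p under 0.05 in both arrays of at least 1 of these 2 groups. They number 17882 of 47228 probes. FAK (focal adhesion kinase, gene PTK2) is a cytoplasmic tyrosine kinase and scaffold that is recruited to integrins when cells bind the extracellular matrix. It joins Src, p130Cas, paxillin and GRB2 in signalling complexes that feed into ERK signalling and cell movement. Pancreatic ductal carcinomas often carry much FAK, and its kinase is a drug target in this tumor.

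The study asked how gene expression changes when FAK is knocked down. Capan-1 and MIA PaCa-2 cells, a second pancreatic carcinoma line, carried shCtrl, sh1209 or a second FAK hairpin, sh1319, in a lentiviral pLKO.1 tet-on backbone with puromycin resistance. Each of the 6 groups had 2 arrays, 12 in all. Doxycycline at 50 ng/ml switched the hairpins on, for 96 hours, and puromycin was kept at 1.5 ug/ml in Capan-1 and at 3.5 ug/ml in MIA PaCa-2. The 4 arrays compared here are Capan-1 shCtrl replicates 1 and 2 and Capan-1 sh1209 replicates 1 and 2. All groups are stable lines selected with puromycin, and the sources used here do not give whether a line is a pool or a clone, nor cells without doxycycline. Whether replicate arrays stem from independent cultures is not stated, so p-values measure only the spread between these arrays, which may be technical.

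Each array was an Illumina HumanHT-12 beadchip, which reads transcripts by the brightness of their probes, and 500 ng of total RNA was labelled per sample. Levels are given as normalized log2 intensity, on which a difference of 1 is a doubling. The intensity has no scale shared between probes, so levels are compared between arrays and never between genes. Changes are log2 differences of sh1209 minus shCtrl with the standard error (SE) of the limma fit, and a probe was called changed at an adjusted p under 0.05.

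The list with the largest share of genes changed in one direction was that of chemokines, cytokines and targets of NF-kB, the transcription factor that drives inflammatory genes. The promoters of the 7 genes of this list with the largest rises and a RefSeq entry are shown first, since they make up 7 of the 15 largest rises in the comparison. Each is the 250 bases before the transcription start in build GRCh38.p14, read 5′ to 3′ on the strand of the gene. CCL20 lies at chr2:227813592-227813841 (plus strand), CXCL6 at chr4:73836428-73836677 (plus), LTB at chr6:31582426-31582675 (minus), CXCL1 at chr4:73869143-73869392 (plus), CXCL2 at chr4:74099196-74099445 (minus), CFB at chr6:31945845-31946094 (plus) and CXCL8 at chr4:73740319-73740568 (plus). Capitals mark matches on either strand to the 10-base NF-kB consensus or to GGAATTTCC, which can lie inside it.
CCL20: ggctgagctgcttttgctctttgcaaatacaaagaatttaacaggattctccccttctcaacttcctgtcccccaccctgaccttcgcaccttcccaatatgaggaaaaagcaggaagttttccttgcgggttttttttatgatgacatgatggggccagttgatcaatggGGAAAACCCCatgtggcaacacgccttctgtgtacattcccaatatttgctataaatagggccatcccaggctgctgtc
CXCL6: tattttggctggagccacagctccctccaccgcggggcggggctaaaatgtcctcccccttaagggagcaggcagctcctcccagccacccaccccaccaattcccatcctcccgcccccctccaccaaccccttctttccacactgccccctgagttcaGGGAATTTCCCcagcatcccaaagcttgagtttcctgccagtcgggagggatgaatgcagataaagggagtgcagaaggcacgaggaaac
LTB: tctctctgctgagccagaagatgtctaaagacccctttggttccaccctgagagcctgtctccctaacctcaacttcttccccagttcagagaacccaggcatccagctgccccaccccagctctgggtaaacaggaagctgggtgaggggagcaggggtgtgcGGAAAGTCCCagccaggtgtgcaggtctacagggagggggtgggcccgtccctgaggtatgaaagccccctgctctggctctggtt
CXCL1: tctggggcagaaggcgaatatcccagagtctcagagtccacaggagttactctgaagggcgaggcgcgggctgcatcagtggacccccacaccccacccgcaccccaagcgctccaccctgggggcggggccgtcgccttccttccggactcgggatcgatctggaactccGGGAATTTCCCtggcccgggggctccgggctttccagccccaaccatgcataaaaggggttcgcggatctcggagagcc
CXCL2: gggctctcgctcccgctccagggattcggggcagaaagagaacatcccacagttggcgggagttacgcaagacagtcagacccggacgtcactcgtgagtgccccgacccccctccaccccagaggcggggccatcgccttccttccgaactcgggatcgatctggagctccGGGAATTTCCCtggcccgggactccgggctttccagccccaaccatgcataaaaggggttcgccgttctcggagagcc
CFB: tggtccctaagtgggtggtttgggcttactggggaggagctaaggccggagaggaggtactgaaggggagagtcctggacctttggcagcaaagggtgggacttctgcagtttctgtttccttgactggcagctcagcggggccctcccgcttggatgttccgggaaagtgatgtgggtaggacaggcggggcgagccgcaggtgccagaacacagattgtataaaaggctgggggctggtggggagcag
CXCL8: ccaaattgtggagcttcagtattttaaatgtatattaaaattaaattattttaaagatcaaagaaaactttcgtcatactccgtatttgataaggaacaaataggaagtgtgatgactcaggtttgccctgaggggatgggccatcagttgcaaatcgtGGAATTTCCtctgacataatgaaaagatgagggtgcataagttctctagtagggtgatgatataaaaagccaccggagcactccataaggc
In CCL20, CXCL6, LTB, CXCL1 and CXCL2 the match starts 78 to 90 bases before the transcription start, and all 5 hold the NF-kB consensus. The match of CXCL8 is GGAATTTCC alone, from 91 to 83 bases before the start, and CFB has no match to either motif in this window. Of 27305 genes with a promoter entry, 5.05% held the NF-kB consensus and 0.428% held GGAATTTCC. Of the 31 list genes that rose, counted with those not detected on every array, 25 had an entry, 12 of these (48.0%) held the consensus and 14 (56.0%) held either motif. Of the 9 other measured genes of the list, 4 had an entry and 1 held a match. Among the 8749 genes with a member probe and an entry, the consensus stood in 6.03%. These matches are letters in a window and not measured binding sites. The list was drawn up to hold known targets of NF-kB, so its share of matches does not test NF-kB activity in these arrays. The 4 other list genes with an entry are too few for a comparison within the list.

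Before any result, the arrays were checked. Detected probes numbered 18441 and 18585 with shCtrl and 18742 and 19141 with sh1209, within the 16259 to 19814 of all 12 arrays. Across the 24207 probes tested, Pearson's r was 0.994 between the 2 arrays of either group and 0.977 to 0.978 between groups, so no array stood apart. This is a correlation across probes, which are not independent replicates. Markers of duct epithelium were detected on all 4 arrays for 9 of 10 genes, with KRT19 at 12.50 to 12.61 and EPCAM at 12.26 to 12.48, against 6.03 and 4.56 in MIA PaCa-2 shCtrl. None of 4 endocrine and none of 6 fibroblast markers was detected on all 4 arrays, and the leukocyte genes PTPRC, CD3D and CD14 were not detected on any. The acinar gene PRSS1 was at 6.31 and 6.52 with shCtrl and at 7.89 and 7.97 with sh1209, while CPA1, CELA3A and PNLIP were not detected. CD68, which epithelial cells also express, was the 1 leukocyte marker of 5 detected throughout, and the log2 of the summed level of the 5 was 9.24 and 9.31 with shCtrl and 9.57 and 9.52 with sh1209. The endothelial markers VWF and PECAM1 stayed at 5.36 or lower. VWF was detected with sh1209 alone.

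PTK2, the target of the hairpin, fell. Its brighter probe read 10.35 and 10.17 with shCtrl and 9.66 and 9.63 with sh1209. Both sh1209 arrays were below both shCtrl arrays, and the change was -0.61 (SE 0.11, limma, adjusted p = 0.0036), which left 65.4% of the shCtrl level. A dimmer PTK2 probe read 5.90 and 6.03 with shCtrl and 5.61 and 5.41 with sh1209, a change of -0.46 (SE 0.16) that did not pass (adjusted p = 0.08). When the arrays were scaled to a common median instead of quantile-normalized, the brighter probe changed by -0.42 and did not pass (adjusted p = 0.23). With the other hairpin, sh1319, the same probe read 8.48 and 8.49, a change of -1.78 that left 29.2%. In MIA PaCa-2, sh1209 took it from 9.45 and 9.46 to 7.28 and 7.14, which left 21.1%. The fall with sh1209 in Capan-1 was thus smaller than with sh1319 by 1.16 (limma, adjusted p = 6.2e-05) and smaller than in MIA PaCa-2 by 1.63 (adjusted p = 4.5e-05). PTK2B, the gene of the related kinase PYK2, read 5.33 and 5.65 with shCtrl and 5.32 and 5.64 with sh1209.

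Of the 17882 members, 4067 passed the test, 1966 higher and 2101 lower with sh1209. That is 22.7% of members (11% higher and 11.7% lower), beside 16.8% (4074) of the 24207 probes tested, 8.14% higher and 8.69% lower. Since a member can enter through its bright group alone, the counts below rest on the 15002 members detected on all 4 arrays, of which 1661 (11.1%) were higher and 1985 (13.2%) lower. The rises were the larger changes. A log2 change of at least 2 was seen in 60 probes that rose and 5 that fell, and one of at least 3 in 23 and 1. The median change of these 15002 probes was -0.02, and with median scaling it was 0.16, a shift that took the 24207 probes to 2009 higher and 450 lower calls. Small falls therefore depend on the scaling, and a list's counts for sh1209 against shCtrl are also given with median scaling where it changes them. Of the genes named below, PTK2 and 26 others kept their sign but not their call with median scaling: AURKB, BMI1, CDKN2D, CNN3, DDIT3, ESRP1, FOSL1, GRB2, GRB7, ITGAE, ITGB6, KLK11, NOP56, NUF2, PNO1, PPM1D, SPRED2, TEAD4, TLN1, TPM3, TTK, VCL, XAF1 and ZYX among the falls and ALDH1A1 and ALDH1A3 among the rises. The other members were 1716 probes detected in both sh1209 arrays but not in both shCtrl arrays and 1164 of the reverse kind. The 200 probes just inside the detection rule had a median level of 4.59, and the 200 just outside 4.58. The groups did not overlap in any of the 4067 called members, and they did not overlap in 65.8% of all members either.

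**Figure D1:**
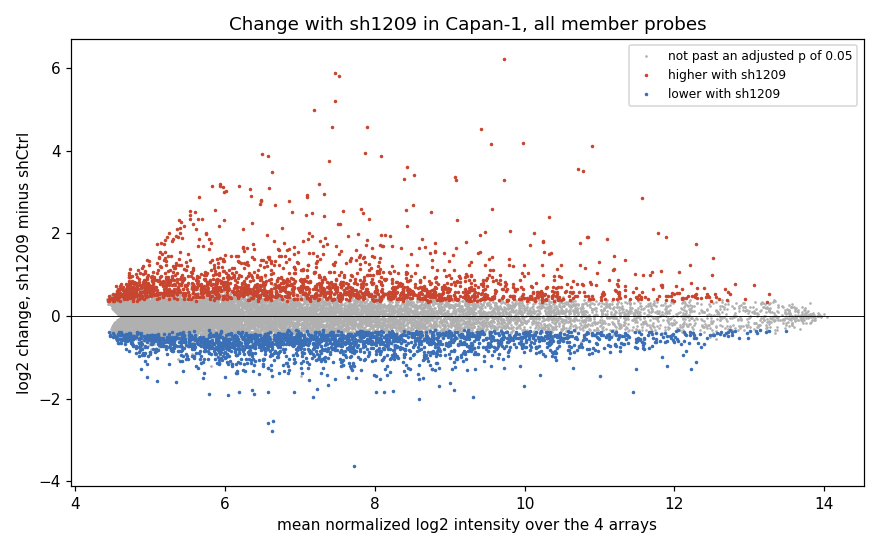
Log2 change with sh1209 (sh1209 minus shCtrl, vertical axis) against the mean normalized log2 intensity over the 4 Capan-1 arrays (horizontal axis). Each point is 1 of the 17882 member probes, red where it was higher and blue where it was lower at an adjusted p under 0.05; rises reach 6.21 and falls -3.62.

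One probe stood for each gene in the lists, the member probe with the highest mean level, and only genes detected on all 4 arrays were counted unless said otherwise. Over all 9786 such genes, 1275 (13%) rose and 1249 (12.8%) fell, with a median change of 0.01. The 30 lists hold 988 genes, and their shares are read beside these values.

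**Figure D2:**
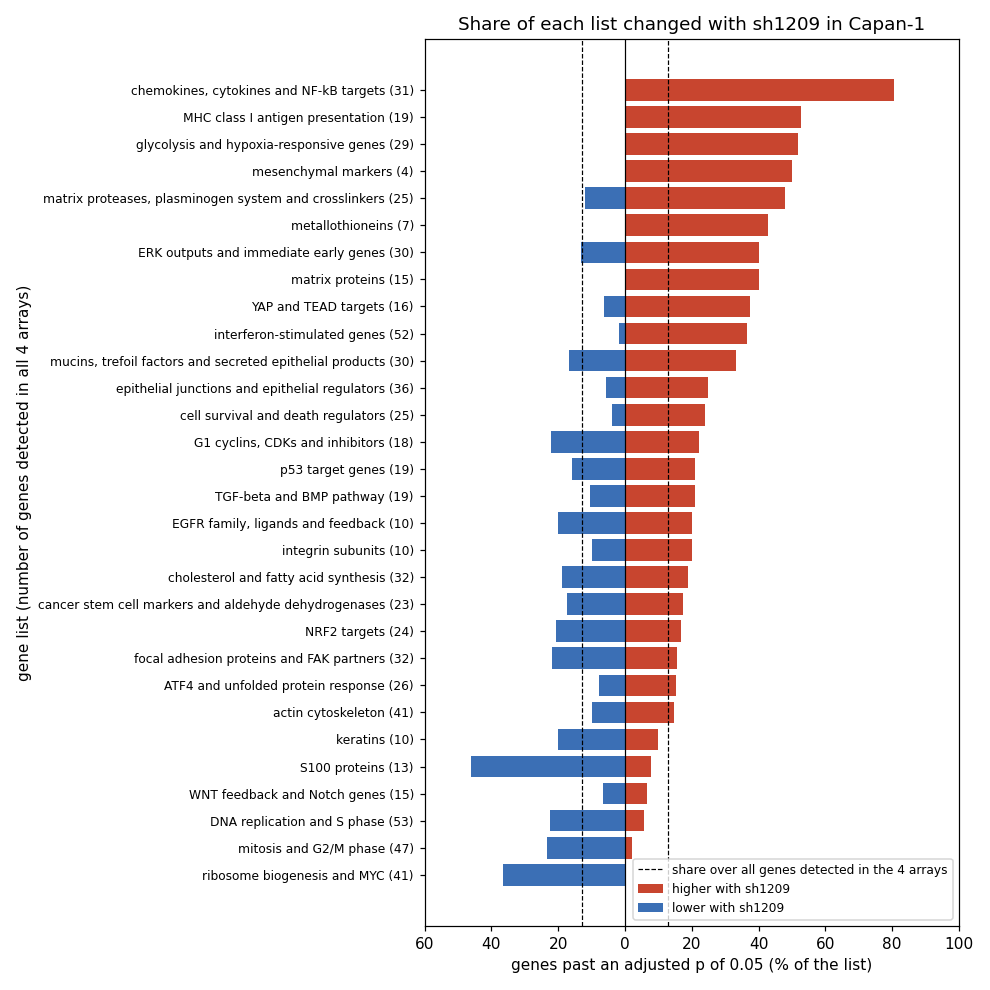
Share of each of the 30 gene lists that was higher (red, right) or lower (blue, left) with sh1209 in Capan-1 at an adjusted p under 0.05, in percent of the genes detected on all 4 arrays (number in brackets). Dashed lines mark the 13% higher and 12.8% lower over all 9786 genes; the list of chemokines, cytokines and NF-kB targets has the largest share higher, 80.6%, and that of S100 proteins the largest share lower, 46.2%.

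Most chemokines, cytokines and NF-kB targets rose. Of 31 list genes detected on all 4 arrays, 25 rose, none fell and 6 did not pass, and the median change was 1.50. Median scaling gave 26 higher and a median of 1.60. CCL20, the chemokine that attracts CCR6-bearing lymphocytes and dendritic cells, read 7.01 and 6.25 with shCtrl and 12.89 and 12.77 with sh1209. The sh1209 arrays were far above the shCtrl arrays, and the change of 6.21 (SE 0.19, limma, adjusted p = 5.9e-09) was 73.8-fold, the largest in the comparison among probes detected on all 4 arrays. The neutrophil chemokines that signal through CXCR1 and CXCR2 moved with it. CXCL6 went from 4.89 and 4.86 to 10.05 and 10.08, 36.4-fold. CXCL1 went from 7.09 and 7.24 to 11.66 and 11.68, 22.8-fold. CXCL8, which encodes interleukin-8, went from 7.97 and 7.81 to 11.93 and 12.20, 18.1-fold, and a brighter CXCL8 probe changed by 3.50. CXCL2 went from 5.77 and 6.03 to 9.82 and 9.84, 15.3-fold. In each of these 4 genes the groups lay several log2 units apart and did not overlap. LTB, the membrane-bound partner of lymphotoxin alpha, went from 5.76 and 5.46 to 10.22 and 10.14, a change of 4.57 (SE 0.16, limma, adjusted p = 8.5e-09).

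Acute phase and complement genes of the same list followed. SAA1, a secreted acute phase apolipoprotein, read 7.51 and 7.43 with shCtrl and 11.56 and 11.68 with sh1209, a change of 4.15 (SE 0.11), and SAA2 changed by 3.19. The nearly identical SAA1 and SAA2 transcripts may share signal. SAA4, the constitutive member of this family, was in no list and changed by 3.74 (SE 0.18, limma, adjusted p = 8.1e-08). CFB, complement factor B, went from 8.94 ± 0.09 (SD, n = 2) to 12.49 ± 0.07, a change of 3.55. PTGS2, the inducible cyclooxygenase, changed by 3.31 and IL32 by 2.88. The feedback inhibitors of NF-kB also rose. NFKBIA, which encodes IkB alpha, went from 9.88 and 9.82 to 11.72 and 11.53. TNFAIP3, which encodes the ubiquitin-editing protein A20, was not detected with shCtrl and was at least 4.79-fold higher with sh1209. BIRC3, an inhibitor of apoptosis, went from 9.58 and 9.47 to 10.59 and 10.53. A further 9 list genes were members through the sh1209 arrays alone, and 6 of these passed, in the one direction that this way of entering allows.

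**Figure D3:**
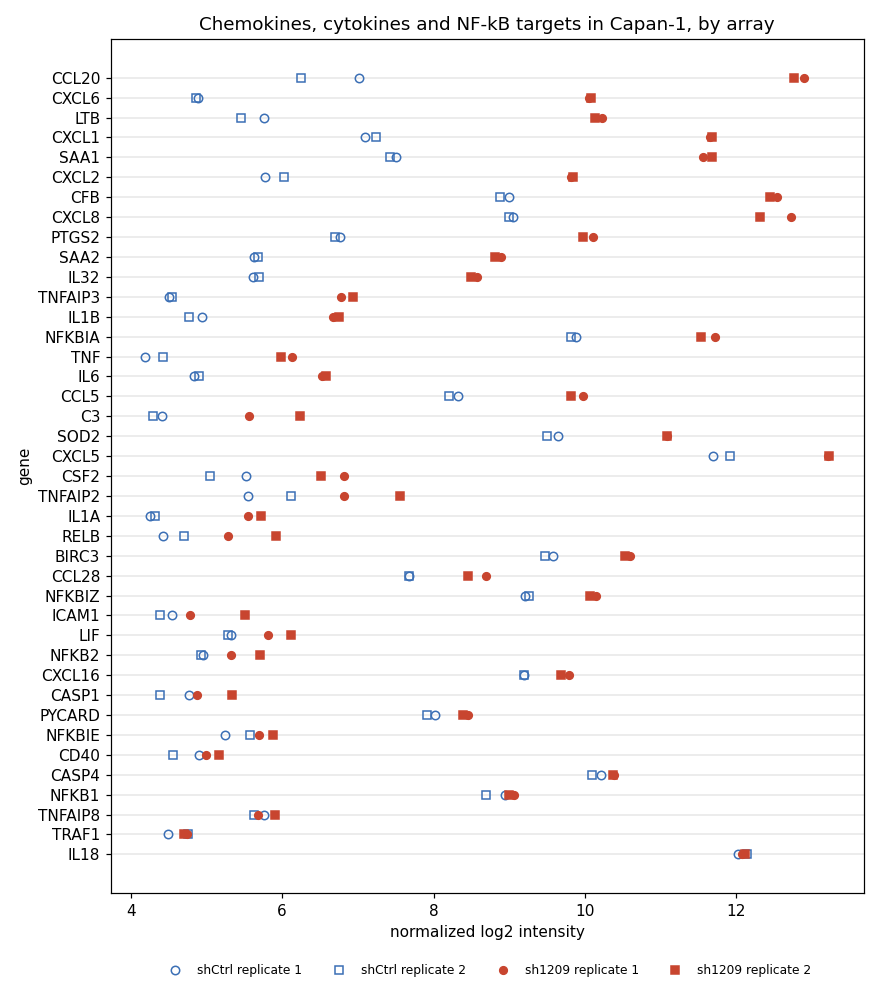
Normalized log2 intensity (horizontal axis) of the 40 genes of the list of chemokines, cytokines and NF-kB targets with a member probe, in the 2 shCtrl arrays (open blue) and the 2 sh1209 arrays (filled red) of Capan-1. Genes are ordered by their change, from CCL20 at 6.21 to IL18 at 0.01.

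The alarmins S100A8 and S100A9, whose proteins pair as calprotectin, rose, while 6 other S100 genes fell. S100A9 read 8.84 and 8.87 with shCtrl and 12.95 and 12.95 with sh1209, a change of 4.10 (SE 0.10, limma, adjusted p = 1.1e-09) or 17.2-fold. S100A8 was detected on 1 of the 2 shCtrl arrays. It read 4.80 and 4.42 there and 10.45 and 10.39 with sh1209. Of the 13 genes of the S100 list detected throughout, 6 fell and S100A9 alone rose, with a median of -0.38 (median scaling gave 4 lower and -0.20). S100P, often abundant in pancreatic carcinoma, went from 12.86 and 12.86 to 11.60 and 11.57, and S100A5 from 6.37 and 6.18 to 4.95 and 5.08. S100A7 (psoriasin) was not detected with shCtrl and read 5.12 and 5.02 with sh1209. The list also took in S100PBP, which encodes a binding partner and no S100 protein.

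Genes of antigen presentation were among the rises in both classes. HLA-DRA, the alpha chain of the MHC class II molecule HLA-DR, read 5.05 and 5.26 with shCtrl and 9.74 and 9.68 with sh1209, a change of 4.56 (SE 0.17, limma, adjusted p = 1.4e-08). A second HLA-DRA probe changed by 2.17. The other class II genes were examined after this value was seen, so their choice is not independent of it. CD74, the invariant chain that guides class II molecules, was detected on 1 shCtrl array by its brightest probe, which read 4.29 and 4.97 with shCtrl and 8.49 and 8.53 with sh1209. HLA-DMB went from 5.82 and 5.44 to 8.53 and 8.60, and HLA-DMA from 6.98 and 6.97 to 8.91 and 8.70. HLA-DPA1 and HLA-DRB6 were not detected with shCtrl and were at least 5.62-fold and 7.52-fold higher with sh1209. Of 6 class II probes detected on all 4 arrays, for 5 genes, 5 were higher, none was lower and 1 did not pass. DR beta genes are near copies of each other, so their probes may share signal.

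The MHC class I changes were smaller. Of 19 genes of the class I list, 10 rose and none fell, with a median of 0.39 (median scaling: 9 and 0.59). TAPBP, the peptide-loading chaperone tapasin, changed by 1.05 (SE 0.16) and HLA-B by 0.86 (SE 0.14). A dimmer TAPBP probe changed by 0.16 and did not pass. The transporter gene TAP1 changed by 0.71 and the immunoproteasome gene PSMB9 by 0.64. HLA class I genes are also near copies of each other. Of 52 interferon-stimulated genes, 19 rose and 1 fell (median scaling: 18 and none), with a median of 0.22. CXCL10, a chemokine for activated T cells, went from 5.30 and 5.17 to 7.55 and 7.40, and IFI6 from 8.04 and 7.80 to 9.89 and 9.48. IFI27 was detected on 1 shCtrl array and went from 4.83 and 4.41 to 7.71 and 7.82. XAF1 fell by 0.57 (SE 0.17, limma, adjusted p = 0.036).

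The other leading rises fell in no single list. ATP10B, a phospholipid flippase, read 6.68 and 6.56 with shCtrl and 10.16 and 10.29 with sh1209, a change of 3.61. VNN2, a pantetheinase-related surface protein, went from 4.75 and 5.02 to 8.37 and 8.38. PDZK1IP1, a small membrane protein of epithelia, went from 6.72 and 6.93 to 10.24 and 10.21. SGK1, a kinase related to AKT, went from 7.46 and 7.34 to 10.61 and 10.89. The 15 largest rises all kept their direction and their call with each of the 4 arrays left out in turn and with median scaling, where they lay between 3.38 and 6.06. Of the 706 members detected on both sh1209 arrays and on neither shCtrl array, 202 passed, beside 11% higher over all members. All 202 were higher, the one direction that this way of entering allows. The largest lower bounds were those of LOC730415, at least 14.4-fold, VNN1, at least 7.68-fold, a second LTB probe, at least 7.59-fold, MAGEC2, a cancer-testis antigen, at least 7.56-fold, and HLA-DRB6.

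Genes at the site of FAK itself changed in both directions. Of 32 focal adhesion genes and FAK partners, 5 (15.6%) rose and 7 (21.9%) fell, beside 13% and 12.8% over all genes. The median was 0.07, while median scaling gave 5 higher and none lower. NEDD9, a scaffold of the p130Cas family that binds FAK, went from 6.24 and 6.60 to 8.67 and 8.63, a change of 2.23 (SE 0.13, limma, adjusted p = 7.5e-07). The actin crosslinker ACTN1 changed by 0.97, TNS3 (tensin 3) by 0.96 and SRC by 0.58. The falls, besides PTK2, included the adaptors GRB2 at -0.62 and GRB7 at -0.54. The adhesion proteins ZYX at -0.48, TLN1 at -0.43 and VCL at -0.36 fell too. A dimmer GRB2 probe changed by 0.30 and dimmer GRB7 probes by -0.20 and -0.44, none past the threshold. Dimmer probes of ZYX and VCL changed by -0.36 and -0.65, also without passing. SH3GL1 (endophilin A2), a docking partner of FAK, changed by 0.18 (SE 0.14, limma, adjusted p = 0.48).

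Integrin subunits changed in both directions. ITGB2, the beta chain of leukocyte integrins, went from 8.77 and 8.93 to 10.24 and 10.31, a change of 1.43 (SE 0.14, limma, adjusted p = 4e-05). ITGB1, the beta chain shared by most collagen and laminin receptors, went from 11.19 and 11.36 to 11.90 and 11.84, a change of 0.59 (SE 0.13, adjusted p = 0.0082), and 2 further probes of it changed by 0.43 each without passing. ITGA2, the collagen receptor chain, changed by -0.50 (SE 0.19, adjusted p = 0.11). ITGAE fell by 0.65. ITGA1 was not detected with shCtrl and read 5.10 and 4.99 with sh1209, and ITGB6 was not detected with sh1209 and read 4.85 and 4.77 with shCtrl. Of 10 integrin genes detected throughout, 2 (20%) rose, 1 (10%) fell and 7 did not pass, beside 13% higher and 12.8% lower over all genes. Median scaling gave 2 higher and none lower.

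Matrix and matrix-modifying genes rose more often than they fell. LAMB3, a laminin chain of epithelial basement membranes, read 7.24 and 7.10 with shCtrl and 8.30 and 8.57 with sh1209, a change of 1.26 (SE 0.15), and LAMA3, another such chain, changed by 1.07. A dimmer LAMA3 probe changed by 0.45 and did not pass. Of 15 matrix genes, 6 rose and none fell, with a median of 0.34. COL9A2 was not detected with shCtrl and was at least 3.13-fold higher. Of 25 proteases, plasminogen system genes and crosslinkers, 12 rose and 3 fell (median scaling: 11 and 1), with a median of 0.44. LOXL4, a lysyl oxidase, went from 7.98 and 8.06 to 9.47 and 9.71. MMP7, matrilysin, went from 10.66 ± 0.15 (SD, n = 2) to 12.01 ± 0.02, and the prolyl hydroxylase P4HA2 changed by 1.23. The inhibitor SERPINE2 (protease nexin 1) fell by 0.93 and KLK11 by 0.89. Of 41 actin cytoskeleton genes, 6 rose and 4 fell. RHOB, a stress-induced small GTPase, went from 7.44 and 7.33 to 9.08 and 9.09, and the tropomyosin TPM1 changed by 0.86, while TPM3 fell by 0.88 and CNN3 by 0.65. Median scaling left 4 higher and none lower. A dimmer TPM3 probe changed by 0.08 and did not pass. ACTB changed by 0.32 (SE 0.12, adjusted p = 0.083).

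About as many glycolysis and hypoxia-responsive genes rose as did not pass. Of 29 genes, 15 rose, none fell and 14 did not pass, with a median of 0.45 (median scaling: 12 and 0.56). PFKFB4, which makes the activator of phosphofructokinase, went from 6.04 and 5.94 to 7.29 and 7.60, a change of 1.46 (SE 0.18, limma, adjusted p = 0.00024). NDRG1 went from 7.20 and 7.35 to 8.67 and 8.74, and the lactate exporter SLC16A3 from 8.32 and 8.32 to 9.64 and 9.69. The brightest GAPDH probe changed by 0.23 (SE 0.12, adjusted p = 0.26), and its 2 dimmer probes by 0.38 and 0.57, both past the threshold.

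Immediate early and YAP target genes rose more often than they fell. Of 30 ERK outputs and immediate early genes, 12 rose and 4 fell, with a median of 0.35, and median scaling gave 11 and none. The AP-1 subunit JUN went from 7.63 and 7.36 to 9.98 and 10.02, a change of 2.51 (SE 0.12, limma, adjusted p = 1.3e-07). FOSB went from 7.91 and 7.96 to 10.23 and 10.27, and JUND changed by 1.10. The AP-1 subunit FOSL1 fell by 0.52 and the ERK inhibitor SPRED2 by 0.78. Of 16 genes in the list of targets of YAP and TEAD, the factors that read cell tension, 6 rose and 1 fell, with a median of 0.36. Median scaling gave 6 higher and none lower. CCN2 (CTGF) went from 7.69 and 7.78 to 9.27 and 9.18, CCN1 (CYR61) from 8.07 and 8.12 to 9.46 and 9.42, and IGFBP3 from 8.78 ± 0.14 (SD, n = 2) to 10.83 ± 0.23. The list also took in the factors YAP1, WWTR1, TEAD1 and TEAD4 themselves, and TEAD4 fell by 0.43. Of 10 EGFR family genes 2 rose and 2 fell (median scaling: 2 and 1), among them the ligands HBEGF at 1.03 and EREG at -0.90. Of 19 TGF-beta and BMP genes 4 rose and 2 fell (median scaling: 4 and 1), with PMEPA1 at 1.95 and BAMBI, a decoy receptor, at -0.90.

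The largest falls were smaller than the largest rises. SHISA2, an endoplasmic reticulum protein that holds back FGF and WNT receptors, read 9.56 and 9.51 with shCtrl and 5.97 and 5.85 with sh1209, a change of -3.62 (SE 0.15, limma, adjusted p = 3.4e-08) that left 8.12%. AKR1B10, an aldo-keto reductase that clears carbonyls and retinals, went from 8.11 and 7.92 to 5.22 and 5.25, which left 14.6%. UGT1A1, a glucuronosyltransferase, went from 8.10 and 7.62 to 5.44 and 5.11, and genes of the UGT1A cluster share exons, so the probe may read several of them. KRT13, a keratin of stratified epithelia, went from 7.99 and 7.81 to 5.31 and 5.44. DKK1, a secreted WNT inhibitor, went from 9.63 and 9.54 to 7.58 and 7.58, which left 24.9%, while a second DKK1 probe changed by -0.43 and did not pass. ANXA10, an annexin of gastric-type epithelium, went from 12.39 and 12.35 to 10.55 and 10.49. The stomach proteins PGC (pepsinogen C) and LYZ (lysozyme) fell too, PGC from 7.33 and 7.35 to 5.52 and 5.37 and LYZ from 8.91 and 8.95 to 7.19 and 7.01, while a brighter LYZ probe changed by -1.29.

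The rest of the 15 largest falls were LOC642956 (-1.97), the lysophosphatidic acid phosphatase ACP6 (-1.96), the thrombin receptor F2R (-1.91), the peroxisomal oxidase ACOX2 (-1.90), ASPH (-1.85), COMMD2 (-1.84) and the hyaluronan-degrading CEMIP (-1.84). A second and much brighter F2R probe read 13.77 and 13.83 with shCtrl and 13.77 and 13.85 with sh1209, a change of 0.01. Of 2 further ASPH probes 1 passed. All 15 falls kept their call with each array left out in turn and with median scaling, where they lay between -3.28 and -1.51. Of the 423 members detected on both shCtrl arrays and on neither sh1209 array, 75 passed, beside 11.7% lower over all members. All 75 were lower, again the one direction that this way of entering allows. The largest lower bounds were those of ECHDC3 (at least 2.46-fold lower), TM4SF4 (2.17-fold), the small nucleolar RNA SNORD74 (1.94-fold), the gut lectin REG4 (1.92-fold) and CCDC198 (1.85-fold).

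**Figure D4:**
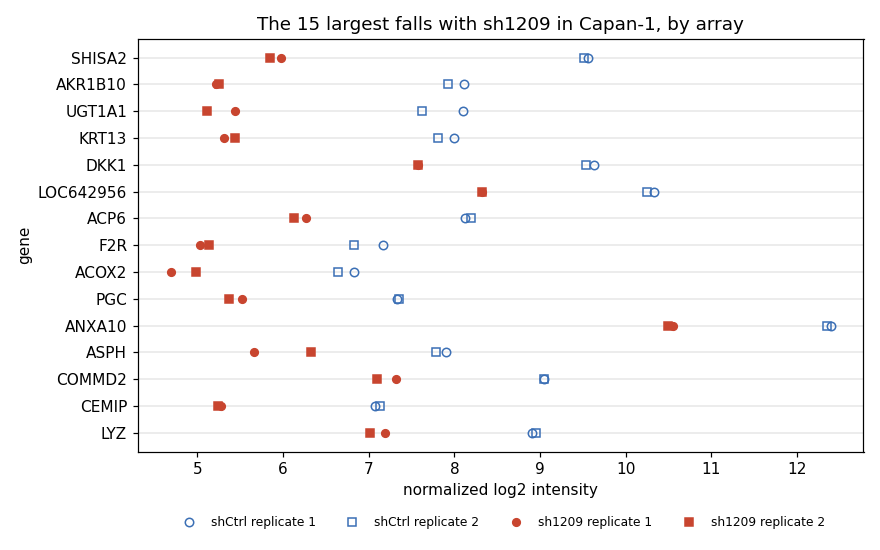
Normalized log2 intensity (horizontal axis) of the 15 genes with the largest falls among probes detected on all 4 arrays, in the 2 shCtrl arrays (open blue) and the 2 sh1209 arrays (filled red) of Capan-1. In every gene both sh1209 arrays lie below both shCtrl arrays; the changes run from -3.62 for SHISA2 to -1.83 for LYZ.

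Growth-related lists leaned lower, by small amounts that depend on the scaling. Of 41 genes of ribosome biogenesis and MYC, 15 fell and none rose, with a median of -0.28, whereas median scaling left 1 lower and a median of -0.13. MYC, the transcription factor that drives this program, went from 10.17 and 10.14 to 9.20 and 9.08, a change of -1.01 (SE 0.11, limma, adjusted p = 9.6e-05) that left 49.5%. PNO1, a small subunit assembly factor, changed by -0.89 and the box C/D core protein NOP56 by -0.77. Of 53 DNA replication genes, 12 fell and 3 rose, with a median of -0.18, and median scaling turned this to 3 and 3 with a median of 0.07. POLE2, a subunit of DNA polymerase epsilon, went from 9.81 and 9.97 to 8.54 and 8.60, a change of -1.32 (SE 0.11). The clamp loader RFC3 changed by -1.10 and the primase PRIM1 by -0.93, while MCM2 of the replicative helicase rose by 0.71. Of 47 mitotic genes, 11 fell and PRC1 alone rose (0.54), with a median of -0.16, and median scaling gave none lower and a median of 0.03. AURKB changed by -0.76, NUF2 by -0.71 and TTK by -0.68.

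The falls among cell cycle regulators and p53 targets depend on the scaling. Of 18 G1 regulators, 4 rose and 4 fell, while median scaling gave 3 and none, with CCNG2 at 1.10, CDKN1A (p21) at 0.72 and CDKN2D at -0.59. Of 19 p53 targets, 4 rose and 3 fell, while median scaling gave 5 and none, with GDF15 at 0.87 and PPM1D at -0.63. No MDM2 probe was detected on any of the 4 arrays. Of 25 survival and death regulators, 6 rose and 1 fell, with the death ligand TNFSF10 (TRAIL) at 1.38 and HRK at -0.91.

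Cancer stem cell markers and aldehyde dehydrogenases changed in both directions, at shares near those over all genes. Of 23 genes, 4 (17.4%) rose and 4 (17.4%) fell, beside 13% and 12.8% over all genes. The median was 0.06, and median scaling gave 2 higher and 1 lower. PROM1 (CD133) went from 9.49 and 9.49 to 11.07 and 10.97, a change of 1.54 (SE 0.11, limma, adjusted p = 4.3e-06). ALDH1A3 went from 12.43 ± 0.02 (SD, n = 2) to 13.01 ± 0.02. ALDH1A1, the isoform most often measured by ALDH activity, read 6.66 and 6.63 with shCtrl and 6.99 and 7.02 with sh1209, a change of 0.36 (SE 0.11, adjusted p = 0.044), and its dimmer probe changed by 0.40 without passing (adjusted p = 0.11). The polycomb gene BMI1 changed by -0.73 and LGR4 by -0.97.

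Epithelial genes rose more often than they fell. Of 36 junction genes and epithelial regulators, 9 rose and 2 fell (median scaling: 11 and none), with CLDN1 at 1.46 and EHF at 1.09 on one side and the splicing regulator ESRP1 at -0.63 on the other. Of 5 mesenchymal markers with a member probe, 4 were detected throughout and 2 of these rose, CDH2 (N-cadherin) at 0.75 being one. Of 10 keratins, KRT17 alone rose, at 1.19, and 2 fell (median scaling: 2 and 1). Of 30 mucins and secreted epithelial products, 10 rose and 5 fell (median scaling: 10 and 2). FCGBP, a mucus protein, went from 7.26 and 7.09 to 9.72 and 9.99, the antibody transporter PIGR from 8.52 and 8.38 to 10.41 and 10.56, and FUT3 changed by 1.75, while MUC5AC changed by -1.10.

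The remaining lists were mixed or small. Of 32 cholesterol and fatty acid synthesis genes, 6 rose and 6 fell (median scaling: 6 and 2), among them TM7SF2 at 0.78 and the fatty acid enzymes ELOVL6 at -1.03 and SCD at -0.82. Of 24 NRF2 targets, 4 rose and 5 fell (median scaling: 4 and 2), with FTL at 0.67 and AKR1C3 at -0.99 beside AKR1B10. Of 26 ATF4 and unfolded protein response genes, 4 rose and 2 fell (median scaling: 2 and none), with CEBPB at 1.03 and DDIT3 (CHOP) at -0.58. Of 15 WNT and Notch genes, 1 rose and DKK1 alone fell (median scaling: 2 and 1). Of 7 metallothioneins, 3 rose (median scaling: 2), MT1F at 0.80 the most, and their near-identical sequences may share signal.

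The second hairpin in Capan-1 shares the shCtrl arrays with this comparison, so its changes are given side by side, and the difference between the hairpins was tested as the contrast of the sh1209 and sh1319 means, with the spread taken from all 12 arrays. sh1319 moved 3322 of 24207 probes (13.7%), 6.95% higher and 6.77% lower. The hairpins differed in 2730 probes (11.3%), 1407 of them (5.81%) higher and 1323 (5.47%) lower with sh1209. All 15 largest rises differed, with the larger change under sh1209, the hairpin by whose changes they were ranked. With sh1319, 14 of these rises also passed in the same direction and 1 passed in the opposite direction. CCL20 changed by 6.21 with sh1209 and by 2.01 with sh1319, a difference of 4.19 (limma, adjusted p = 1.7e-07). S100A9 changed by 4.10 and 0.76. S100A8, at 5.81 with sh1209, read 4.55 and 4.59 with sh1319, a change of -0.04. PDZK1IP1 went in opposite directions, 3.40 and -0.47. Of the 15 largest falls, 10 differed, while 14 also passed in the same direction with sh1319 and 1 in the opposite direction. KRT13 also went in opposite directions, at -2.53 with sh1209 and 1.32 with sh1319, where it read 9.23 and 9.22. UGT1A1, ACOX2, PGC, ASPH and LYZ did not differ past the threshold, and UGT1A1 changed by -2.59 and -2.31.

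The lists differed unevenly between the hairpins. Their values here are from quantile normalization alone. Median scaling took the probes that differed between the hairpins from 2730 to 1217. Of the 31 chemokine and NF-kB genes, 21 were higher with sh1209 than with sh1319 and none lower, with medians of 1.50 and 0.59. The glycolysis and hypoxia list had a median of 0.45 with sh1209 and -0.23 with sh1319, and 23 of its 29 genes were higher with sh1209. Of 52 interferon-stimulated genes, 21 were higher with sh1209, with medians of 0.22 and -0.01. None of the 19 class I genes differed past the threshold, at medians of 0.39 and 0.28. The ribosome biogenesis list had medians of -0.28 and -0.33, and 4 of its 41 genes were higher and 2 lower with sh1209. PTK2 was lowered less by sh1209, as given above, and the part of the hairpin sequence or of the line in these differences was not tested.

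The same hairpin gave other changes in MIA PaCa-2, whose arrays are separate from those of Capan-1 and whose puromycin dose was higher, so that line and dose cannot be told apart. There sh1209 moved 4365 probes (18.0%), 9.05% higher and 8.99% lower. The responses of the cell lines differed in 3594 probes (14.8%), with a higher value in Capan-1 for 7.44% and a lower one for 7.41%. All 15 largest rises of Capan-1 differed, but they were chosen by their change in Capan-1, which enters this test. Of these, 8 were not detected on any of the 4 MIA PaCa-2 arrays, CCL20, LTB, S100A9 and CFB among them. Among genes that MIA PaCa-2 does express, HLA-DRA fell there from 7.47 and 7.50 to 4.72 and 4.38, and CXCL2 from 6.80 and 6.75 to 5.48 and 5.19. CXCL8 read 9.77 and 10.22 with shCtrl and 9.79 and 10.15 with sh1209 in that line. SAA1 was the 1 leading rise that also passed in the same direction there, at 0.64. The median of the chemokine and NF-kB list was 0.04 in MIA PaCa-2, over the genes detected in Capan-1. CCN2 changed by -2.78 there and BIRC3 by -2.77, against 1.49 and 1.04 in Capan-1. JUN rose in both lines, at 2.51 in Capan-1 against 1.72 in MIA PaCa-2. DKK1 fell in both, to 24.9% of the shCtrl level in Capan-1 and 4.54% in MIA PaCa-2. The dimmer F2R probe and COMMD2 fell in both lines with no difference past the threshold, at -2.26 and -2.33 in MIA PaCa-2.

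**Figure D5:**
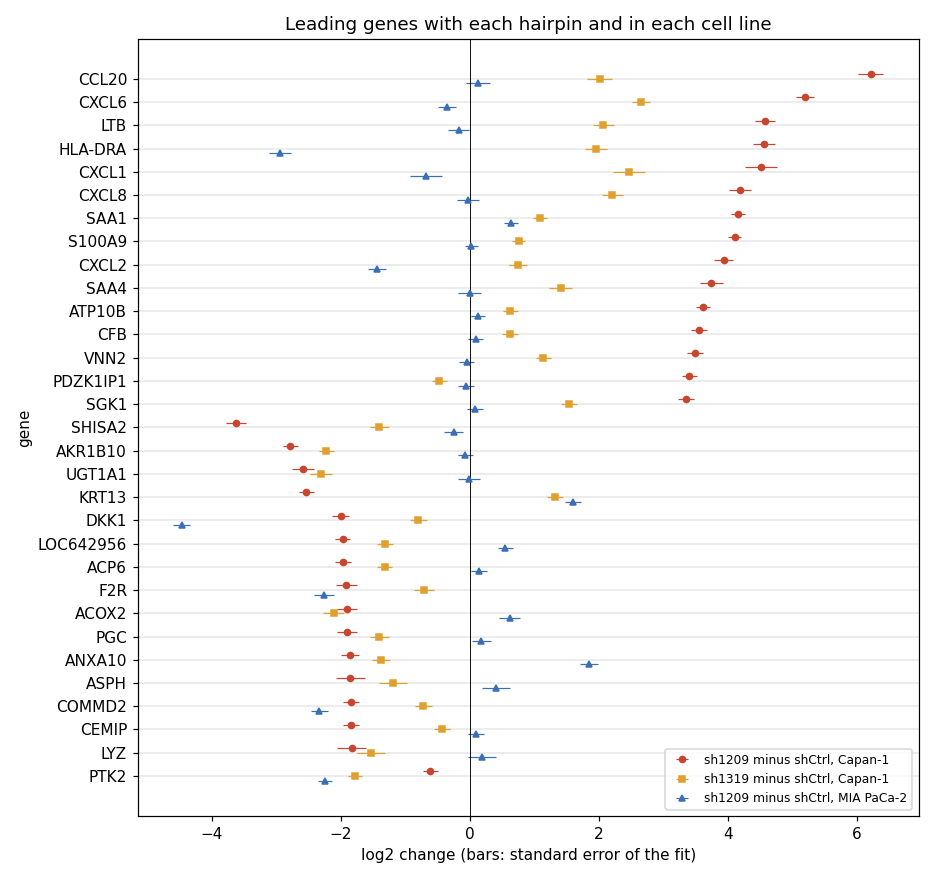
Log2 change (horizontal axis, bars are the standard error of the fit) of the 15 largest rises, the 15 largest falls and PTK2 with sh1209 in Capan-1 (red circles), with sh1319 in Capan-1 (yellow squares) and with sh1209 in MIA PaCa-2 (blue triangles). The red points of the rises, from 3.35 to 6.21, lie to the right of both others, while PTK2 is lowered least by sh1209 in Capan-1, at -0.61.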

How the data were processed

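RNA from Capan-1 and MIA PaCa-2 cells with shCtrl, sh1209 or sh1319 was measured on 12 Illumina HumanHT-12 arrays of 1 chip, grouped by the sample labels (shFAK1319 in the Capan-1 labels was read as sh1319). As deposited, the values are linear probe intensities with a detection p-value each, not normalized, and the submitters' processing notes name GenomeStudio 2011.1. The background was corrected with limma's nec (normexp from the detection p-values, offset 16), 92 spike-in rows of 47320 were dropped, and arrays were quantile-normalized as log2 values. Probes with a detection p under 0.05 on at least 2 of 12 arrays (24207 of 47228) were fitted with 6 group means in limma 3.58.1 (R 4.3.3, empirical Bayes, 6 residual degrees of freedom), with Benjamini-Hochberg adjustment over all of them. The number of arrays limits the precision: SEs of member probes ran from 0.102 to 0.557.

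The members, lists and tests were chosen with earlier results of these data known. Named genes were the 15 largest rises and falls among probes detected on all 4 arrays, the 5 largest lower bounds each way, the 3 largest changes each way in a list (of which the text gives some, others are not reported here), and PTK2, PTK2B, ITGB1, ITGA2, SH3GL1, MDM2, ALDH1A1, ACTB and GAPDH. The class II genes other than HLA-DRA and HLA-DRB6, and SAA2, PTGS2, TNFAIP3, IL32, NFKBIA, TAP1, PSMB9, LAMA3, SRC, VCL, TLN1 and ZYX, were named after their values were seen. A lower bound of a fold sets the mean of the bright group against the mean, over the arrays of the other group, of the higher of the lowest detected signal and the probe's own value. Of 34599 names in the table, 21041 matched a current symbol of the RefSeq table of GRCh38.p14. Promoters are from RefSeq, the first listed start of each gene. Tables were summarised in Python 3.11.15 with pandas 2.3.3. On simulated data with 200 of 24207 probes changed, the fit for sh1209 against shCtrl in Capan-1 recovered 94.5% of changes of 1 and 100% of changes of 1.5, with 5.5% and 4.76% false calls. The noise was added to normalized group means, so the normalization was not tested. Far fewer probes changed there than the 4074 called in the data, so these rates need not hold for them. Alternatives were no background correction, an offset of 50, median scaling, other detection filters, member probes alone, the replicate number as a block, each of the 4 arrays left out, fits of 6 or 4 arrays, array weights, another variance estimate, the plain two-group test on each probe and a minimum change of 1.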

Additional observations from a re-analysis of the deposited data

Results flagged for a closer look

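The response to sh1209 differed between Capan-1 and MIA PaCa-2 in 115 of the 149 genes named above, by limma's test of the difference between the 2 responses at an adjusted p under 0.05. The values are log2 differences, the change in Capan-1 minus the change in MIA PaCa-2, with 2 arrays in each of the 4 groups. Over all 24207 probes tested, 14.8% differed. Most of the 149 genes were named for a large change in Capan-1, which enters this difference, so the choice itself favours a high count.

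In 24 of the 115 genes both changes passed the threshold in opposite directions. For genes that rose in Capan-1 and fell in MIA PaCa-2, the difference was 7.49 for HLA-DRA, 5.37 for CXCL2, 5.20 for LOC730415, 4.27 for CCN2, 3.81 for BIRC3, 3.66 for HLA-DPA1, 3.48 for HLA-DMB, 3.45 for PMEPA1, 2.70 for FOSB, 2.62 for EHF, 2.62 for HLA-DMA, 2.35 for PFKFB4, 1.92 for NDRG1, 1.88 for SLC16A3, 1.86 for HBEGF, 1.60 for HLA-B and 1.49 for CDKN1A. For genes that fell in Capan-1 and rose in MIA PaCa-2, it was -4.80 for BAMBI, -4.13 for KRT13, -3.70 for ANXA10, -3.51 for ELOVL6, -2.52 for ACOX2, -2.52 for LOC642956 and -0.98 for PPM1D. In 11 genes both changes passed in the same direction with unequal sizes, at 3.52 for SAA1, 2.46 for DKK1, 2.40 for SERPINE2, -2.0 for ALDH1A1, 1.98 for SCD, 1.63 for PTK2, -1.36 for CLDN1, 1.14 for NFKBIA, 0.92 for CNN3, 0.78 for JUN and 0.55 for TEAD4. For SH3GL1 the difference was -0.83, and its change passed in MIA PaCa-2 and not in Capan-1.

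In 41 genes no MIA PaCa-2 array of shCtrl or sh1209 detected the probe. No response in MIA PaCa-2 was therefore measured for them, and the difference largely restates the change in Capan-1. Among rises in Capan-1 it was 6.08 for CCL20, 5.81 for S100A8, 4.74 for LTB, 4.08 for S100A9, 3.96 for CD74, 3.75 for SAA4, 3.54 for VNN2, 3.48 for ATP10B, 3.46 for CFB, 3.46 for PDZK1IP1, 3.32 for PTGS2 and 3.23 for MAGEC2. It was 3.16 for IFI27, 3.15 for HLA-DRB6, 3.03 for SAA2, 2.84 for IL32, 2.20 for NEDD9, 1.88 for COL9A2, 1.77 for FUT3, 1.58 for LOXL4, 1.56 for PROM1, 1.36 for MMP7 and 1.31 for LAMB3. A further set stood at 1.18 for KRT17, 1.07 for CDH2, 1.06 for LAMA3, 0.75 for S100A7 and 0.70 for ITGA1. Among falls it was -2.71 for AKR1B10, -2.58 for UGT1A1, -2.07 for PGC, -1.94 for CEMIP, -1.57 for ECHDC3, -1.47 for TM4SF4, -1.34 for REG4, -1.19 for S100P, -1.16 for MUC5AC, -1.12 for CCDC198, -1.08 for LGR4 and -0.98 for AKR1C3. It was -0.62 for ESRP1.

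In the others the change in MIA PaCa-2 did not pass the threshold. Among these, CXCL6, VNN1, CXCL10, FCGBP, TNFAIP3, PIGR, GDF15 and SHISA2 were detected on only 1 of the 4 MIA PaCa-2 arrays. Their levels there lie near the lowest detected signal, where changes are understated. Where Capan-1 was higher with sh1209, the difference was 5.54 for CXCL6, 5.19 for CXCL1, 4.20 for CXCL8, 3.26 for SGK1, 2.89 for VNN1, 2.24 for CXCL10, 2.21 for FCGBP, 2.15 for IGFBP3, 2.14 for TNFAIP3, 2.05 for IFI6, 1.85 for ITGB2 and 1.66 for PIGR. It was 1.46 for CCN1, 1.43 for CCNG2, 1.32 for P4HA2, 1.26 for GDF15, 1.08 for PSMB9, 1.05 for TNS3, 1.00 for CEBPB, 0.92 for SRC, 0.76 for ACTN1, 0.76 for TAP1 and 0.63 for TPM1. Where Capan-1 was lower, it was -3.37 for SHISA2, -2.26 for ASPH, -2.10 for ACP6, -2.02 for LYZ, -1.31 for MYC, -1.23 for RFC3, -1.02 for BMI1, -0.89 for PNO1, -0.85 for EREG, -0.83 for SNORD74, -0.79 for ZYX and -0.72 for TTK. It was -0.57 for NUF2, -0.53 for VCL and -0.52 for NOP56.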

How the results depend on the processing

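Median scaling in place of quantile normalization gave 2459 changed probes against 4074, 1217 probes that differed between the hairpins against 2730 and 1848 that differed between the cell lines against 3594, and the PTK2 change of -0.42 no longer passed. It moved the medians of 29 of the 30 lists upward by more than the spread between replicates, and 26 of 143 called named genes lost their call. With 1 array left out (Capan-1 shCtrl replicate 1 or 2, or sh1209 replicate 1 or 2), changed probes numbered 2251 to 2446, differences between the hairpins 1307 to 2522 (2507 and 2522 without a shCtrl array, 1307 and 1554 without a sh1209 array), differences between the cell lines 2498 to 2563, and PTK2 changed by -0.70 to -0.52 and passed. Between 16 and 21 of the 143 named genes lost their call. The plain two-group test on each probe gave 0 changed probes after Benjamini-Hochberg adjustment (4935 at an unadjusted p under 0.05), 2 probes that differed between the hairpins, and PTK2 at -0.61 without passing; it was not run for the difference between the cell lines. A minimum log2 change of 1 left 627, 416 and 1450 probes and not PTK2, at -0.61. The sign of PTK2B, not called, turned to 0.20 with median scaling and to 0.15 without shCtrl replicate 2 or sh1209 replicate 1 (range -0.17 to 0.15 with 1 array left out).

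The labels do not say whether same-numbered replicates belong together. Deviations of same-numbered arrays from their group means correlated between -0.06 and 0.16, which cannot settle this. With the replicate number as a block, 3914 probes changed, 2610 differed between the hairpins and 3422 between the cell lines, PTK2 changed by -0.61 (adjusted p = 0.0057), and 2 of 143 named genes lost their call. The settings not given here (no background correction, an offset of 50, no detection filter, a detection p under 0.01, member probes alone, fits of 6 or 4 arrays where they hold the groups, array weights, another variance estimate) kept the counts within 1.5 times and PTK2 past the threshold. Probes near the lowest detected signal, 4.55 to 4.74 on the log2 scale, understate changes.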
